A study of Mus musculus with 17 samples.

Results

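The mitochondrially encoded transcripts are the 37 genes whose symbols begin with mt-, out of 55536 genes in the deposited tables. They are 2 ribosomal RNAs (rRNAs), 13 messenger RNAs (mRNAs) and 22 transfer RNAs (tRNAs). RNA-seq libraries came from hepatocytes released by collagenase perfusion from 3-month-old C57BL/6J mice of genotype ApcDHep, in which hepatocytes lose Apc, a brake on β-catenin. All mice had carried AAV8, a viral vector that reaches hepatocytes, with SaCas9 constructs for 1 month, and had received tamoxifen (2 mg, 7 days). The constructs edited either Rosa26, the usual neutral site (5 libraries), or a site bound by β-catenin that lies upstream of DLK1/DIO3, labelled DLK1DWRE and here called WRE-edited (6 libraries). The library names carry 3 run labels. Run r770 held WRE-edited 1 to 3 and Rosa26-edited 1 to 3, run r595 held WRE-edited 6 and Rosa26-edited 4 and 5, and run r711 held WRE-edited 4 and 5 with no control. The labels used here state neither what differed between the runs at the bench nor which promoter drives the recombinase. The labels do not say whether libraries are separate animals, so p-values measure the spread between libraries, which may be technical. The library names of WRE-edited 4 and 6 share a number.

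The mitochondrial genome is a small circle transcribed from both strands into long precursors. The tRNAs lie between the other genes, and cutting them out frees the rRNAs and mRNAs. The rRNAs build the mitochondrial ribosome, and the mRNAs encode core subunits of respiratory complexes I, III and IV and of the ATP synthase, whose other subunits come from nuclear genes. Hepatocytes are rich in mitochondria, which serve the urea cycle and fatty acid oxidation, and stretches of mitochondrial sequence also lie copied in the nuclear chromosomes.

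Library totals ran from 20727036 up to 38935135 expected counts, RSEM's estimate of the reads of each gene. The summed level of 8 hepatocyte markers was 43844 to 54417 CPM (counts scaled to library size with TMM factors), against 160 to 421 CPM for 6 macrophage markers and 85.2 to 141 CPM for 5 endothelial markers. Of 4 markers of heart and skeletal muscle, tissues also rich in mitochondria, the sum was at most 0.0732 CPM, with Tnnt2 at 0 throughout. Rian, a long non-coding RNA of the DLK1/DIO3 locus, was at 48.7 to 113 CPM in the WRE-edited and 171 to 405 CPM in the Rosa26-edited libraries. In bulk libraries, fewer cells of a type and less RNA per cell cannot be told apart.

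All 22 tRNAs were listed at 0 in every library, with an effective length of 0, and their levels were not measurable here. The lengths in the files matched those of RefSeq on GRCm38.p6, and a tRNA such as mt-Tf, at 68 bases, is shorter than the mean sequenced fragment of 140 to 173 bases. The other 15 members had counts, and all 15 passed the filter on low counts that left 14393 genes. The rRNA genes lie at bases 70 to 1024 (mt-Rnr1, of the small ribosomal subunit) and 1094 to 2675 (mt-Rnr2, of the large subunit) of the mitochondrial genome. Among the mRNAs, mt-Atp8 overlaps mt-Atp6 by 43 bases, mt-Nd4l overlaps mt-Nd4 by 7 and mt-Nd5 meets mt-Nd6, on the other strand, over 14. The labels do not state how the counting used strand, and the division of reads inside these overlaps is uncertain.

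Mitochondrial RNA took 20.9% to 32.5% of all counts in the 8 libraries of r770 and r711, and 6.93% to 9.40% in the 3 libraries of r595. The rRNAs made up that gap. In r770 they took 23.3%, 19.0% and 21.4% in WRE-edited 1 to 3 and 28.1%, 28.0% and 19.2% in Rosa26-edited 1 to 3. In r711 they took 26.8% and 29.1% in WRE-edited 4 and 5. In r595 they took 2.29% in WRE-edited 6 and 3.00% and 2.54% in Rosa26-edited 4 and 5. No r595 library came near the other runs. The exact 95% binomial (Clopper-Pearson) interval of the lowest of these shares was 2.28% to 2.29%, and such intervals cover counting error only.

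The mRNAs went the other way. The 13 mRNAs took 1.85% to 2.99% of counts in r770, 3.04% and 3.38% in r711 and 4.64% to 6.40% in r595, where both Rosa26-edited libraries (6.40% and 5.39%) were above WRE-edited 6. With the nuclear copies described next added, Gm29216 among them, the shares were 2.702% to 4.67%, 4.76% to 5.36% and 7.02% to 9.48%. For each count of mRNA and copies there were 6.01 to 7.05 counts of rRNA in r770, 5.42 and 5.64 in r711, and 0.316 to 0.326 in r595. The rRNA to mRNA ratio thus separated r595 from the other runs without overlap, while the editing groups lay close together within r595. The rRNAs did not move in step with each other either. There were 8.54 to 10.6 counts of mt-Rnr2 per count of mt-Rnr1 in r770 and r711, and 14.1 to 15.8 in r595.

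**Figure D1:**
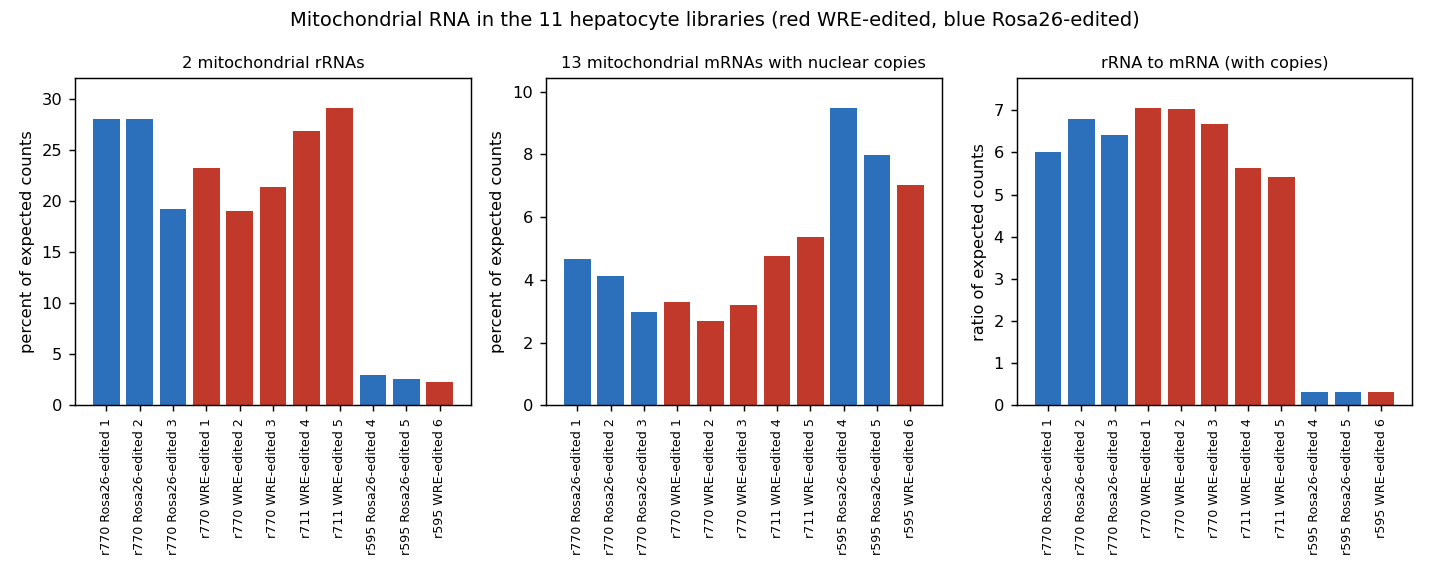
Percent of all expected counts in the 2 rRNAs (left), in the 13 mRNAs with their nuclear copies (middle), and the ratio of rRNA to mRNA with copies (right), 1 bar per library, ordered by run, with WRE-edited libraries in red and Rosa26-edited in blue. The copies include Gm29216, which was paired with no mitochondrial gene. The rRNA share is 2.29% to 3.00% in r595 and at least 19.0% elsewhere, while the mRNA share is highest in r595.

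For 5 of the mRNAs the counts were divided with a nuclear gene model of almost the same sequence length, and the division changed from library to library. The files hold 13 gene models listed as nuclear copies of mitochondrial sequence. Of these, 5 had a length equal to that of a mitochondrial coding sequence without its stop codon: Gm28661 for mt-Co2, Gm28437 for mt-Co3, Gm10925 for mt-Atp6, Gm28438 for mt-Nd3 and Gm10222 for mt-Nd4l. In RefSeq, Gm10925 carries mt-Atp6 among its synonyms and lies at chromosome 1, bases 24613971 to 24614651 of GRCm38.p6, with Gm10222 at 24612404 to 24612700. That stretch of chromosome 1 spans 2248 bases, and the stretch from mt-Atp6 to mt-Nd4l on the mitochondrial genome spans 2247. Another listed copy, Gm29216 of 492 bases, had 389253 counts over all libraries, matched no mitochondrial gene by length and was added to none.

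The copy of mt-Co2, which encodes a catalytic subunit of complex IV, was assigned 98.5% to 100% of the pair's counts, and mt-Co2 itself was listed at 0 in WRE-edited 2, WRE-edited 6 and Rosa26-edited 5. The copy of mt-Co3, another complex IV subunit, was assigned 92.95% to 100%. For mt-Nd3, a complex I subunit, the copy held 0% to 4.65% of the pair in r770, 44.0% and 30.2% in r711 and 97.8% to 100% in r595. For mt-Nd4l, also of complex I, it held 0% to 26.1%, 67.3% and 36.3%, and 94.4% to 97.4%. The ranges of the 3 runs did not overlap for either of these complex I genes, and in r595 the counts went mostly to the copy.

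For mt-Atp6, a membrane subunit of the ATP synthase, the copy held 54.9%, 42.0% and 62.65% in WRE-edited 1 to 3 and 63.4%, 51.4% and 11.1% in Rosa26-edited 1 to 3. Rosa26-edited 3 stood apart from the other r770 libraries. The copy held 79.8% and 81.1% of this pair in r711, and 86.3% in WRE-edited 6 with 79.4% and 88.4% in Rosa26-edited 4 and 5. Because the division differed between libraries, the sums of gene and copy are given below beside the values as deposited. This addition was chosen after the data had been seen.

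**Figure D2:**
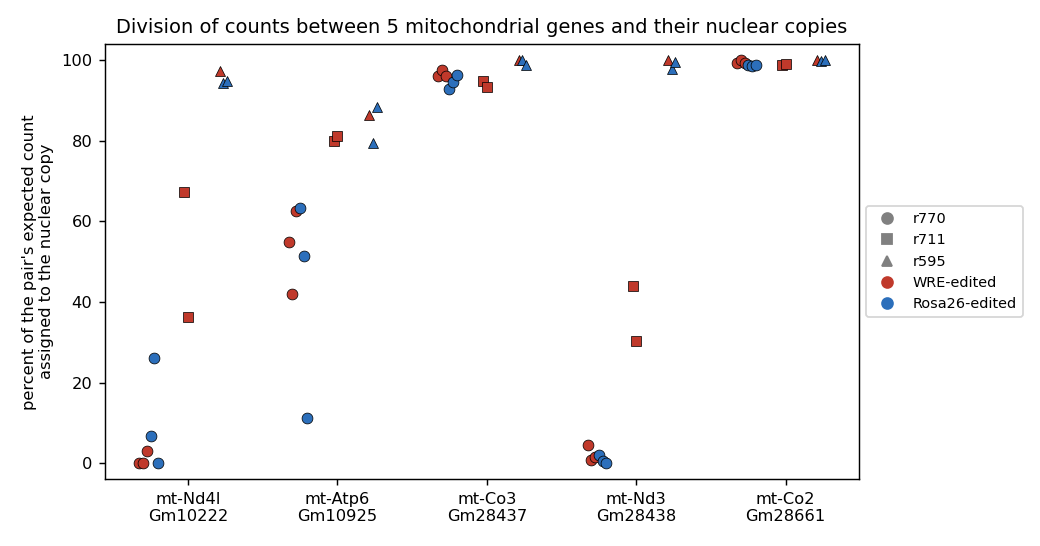
Percent of each pair's expected count assigned to the nuclear copy, 1 point per library, with the run as the marker shape (circle r770, square r711, triangle r595) and the editing group as the colour. The copies of mt-Nd3 and mt-Nd4l hold at most 26.1% in r770 and at least 94.4% in r595.

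Levels of different genes can be compared per length, as TPM, in which counts are divided by effective length and each library has the same sum. With copies added, the order in r770 by median TPM was mt-Rnr2 (87739), mt-Rnr1 (16823), mt-Co1 (5975), mt-Co3 (5530), mt-Co2 (4585), mt-Atp6 (2067), mt-Nd1 (1561), mt-Cytb (1484), mt-Atp8 (1358), mt-Nd3 (1148), mt-Nd2 (716), mt-Nd4 (474), mt-Nd4l (372), mt-Nd5 (284) and mt-Nd6 (159). The complex IV mRNAs led the mRNAs, and mt-Nd6, the only mRNA read from the other strand, was last. The ranges of neighbours in this order overlapped for every pair except mt-Rnr2 with mt-Rnr1, mt-Rnr1 with mt-Co1, mt-Co2 with mt-Atp6, and mt-Nd2 with mt-Nd4. In r595 mt-Co1 led at a median of 15023 TPM, followed by mt-Atp8 (13558) and mt-Rnr2 (11670), and mt-Rnr1 (1460) ranked 13 of 15. The effective length of mt-Atp8 was only 44.7 to 67.1 of its 204 bases, so its TPM and rank rest on a small divisor. By counts it held 1.52% to 1.68% of the 13 mRNAs with copies in r595. With copies added, mt-Nd6 at a median of 892 TPM and mt-Nd5 at 903 TPM were the lowest in r595, and the ranges of 12 of 14 neighbouring pairs overlapped there, this pair included.

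Within the mRNA pool the make-up also differed by run. As a percent of the counts of the 13 mRNAs with copies, mt-Co1, the main catalytic subunit of complex IV, held 38.8% to 42.3% in r770, 35.6% and 38.7% in r711 and 35.4% to 38.2% in r595. For mt-Co3 the share was 14.2% to 21.1% in r770, 18.0% and 19.2% in r711 and 9.75% to 10.7% in r595. The share of mt-Atp6 was 5.08% to 5.91%, 6.69% to 7.17% and 9.28% to 10.2%, in the same order of runs. The share of mt-Atp8, a small ATP synthase subunit, was 0.292% to 0.584%, 0.711% to 0.836% and 1.52% to 1.68%. For mt-Atp6 and mt-Atp8 the ranges of the runs did not overlap, with r711 between the others. The same held for mt-Nd4l, at 0.235% to 0.288%, 0.359% to 0.383% and 0.574% to 0.642%.

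**Figure D3:**
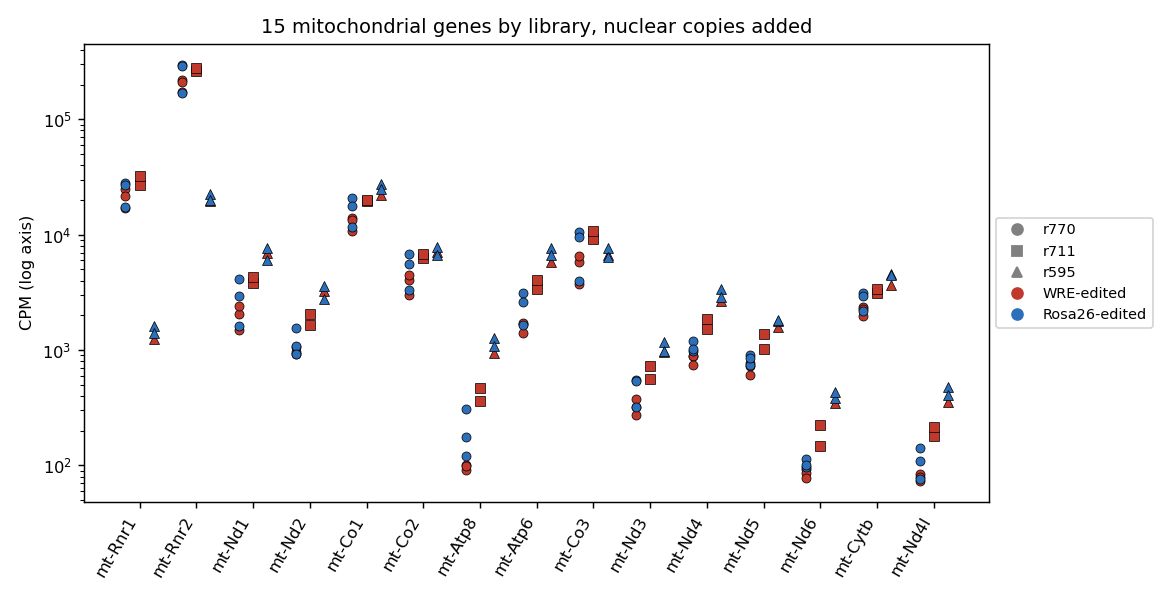
CPM on a log axis of the 15 measured members with nuclear copies added, 1 point per library, with run as marker shape and editing group as colour. The rRNAs are lowest in r595, and the mRNAs other than mt-Co3 and mt-Co2 are highest there.

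The runs were compared in a model with a term for the editing group, fitted over all genes with edgeR's quasi-likelihood test and Benjamini-Hochberg adjustment, at a threshold of 0.05. As deposited, 4 of 15 members were called higher in r770 than in r595, where 9.07% of all genes were called higher, and 8 were called lower, where 7.11% of all genes were. With copies added, 2 were called higher (9.08% of all genes) and 11 lower (7.12%). The calls of mt-Nd3 and mt-Nd4l changed direction with the addition, from higher to lower. Over all genes the median log2 fold change was -0.01.

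Both rRNAs were higher in r770. For mt-Rnr1 the libraries of r595 had 1237 CPM (WRE-edited 6), 1607 and 1411 (Rosa26-edited 4 and 5), and those of r770 had 24669, 16893 and 21740 (WRE-edited 1 to 3) and 28316, 27019 and 17415 (Rosa26-edited 1 to 3). Every r770 library lay above every r595 library. The log2 fold change was 4.04 ± 0.23 (SE), or 16.4-fold (edgeR adjusted p = 1.47e-06). For mt-Rnr2 the range was 19556 to 22708 CPM in r595 and 169486 to 296771 CPM in r770, a log2 fold change of 3.48 ± 0.23, or 11.2-fold.

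Of the complex I mRNAs, all 7 were called lower in r770 with copies added. The range for mt-Nd1 was 1495 to 4140 CPM in r770 against 6002 to 7628 CPM in r595 (log2 fold change -1.47 ± 0.25). The other values with copies added were -1.54 for mt-Nd2, -1.34 for mt-Nd3, -2.09 for mt-Nd4l, -1.59 for mt-Nd4, -1.13 for mt-Nd5 and -1.99 for mt-Nd6. As deposited, mt-Nd4l had 73.4 to 131 CPM in r770 and 9.38 to 27.1 CPM in r595, a log2 fold change of 2.35. As sums with Gm10222 the same libraries had 73.4 to 141 CPM and 357 to 482 CPM. The apparent direction therefore depended on where the counts of the pair were placed.

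Complex III has a single mitochondrial subunit, cytochrome b, and mt-Cytb was lower in r770 at -0.73 ± 0.14. The complex IV mRNAs had the smallest differences of the mRNAs with copies added. mt-Co1 had -0.71 ± 0.17 and was called lower (edgeR adjusted p = 0.0164), mt-Co2 with its copy had -0.64 ± 0.21 and was not called (adjusted p = 0.0556 in edgeR, 0.0203 in DESeq2), and mt-Co3 with its copy had -0.00 ± 0.28. The mt-Co3 sums ranged from 3762 to 10619 CPM in r770 and from 6387 to 7601 CPM in r595, so that the r595 range lay inside the r770 range.

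Among the ATP synthase mRNAs, mt-Atp8 had the largest difference of all mRNAs with copies added. For it the r770 libraries had 100.4, 90.6 and 98.3 CPM (WRE-edited 1 to 3) and 311, 175 and 120 CPM (Rosa26-edited 1 to 3), against 945 (WRE-edited 6), 1263 and 1075 CPM (Rosa26-edited 4 and 5) in r595. The runs did not overlap, and the log2 fold change was -2.84 ± 0.25 (edgeR adjusted p = 2.96e-05), or 7.17-fold lower. mt-Atp6 had 0.04 ± 0.20 as deposited and -1.66 ± 0.18 with its copy. The mean fragment was 155 to 173 bases in r770 and 140 to 143 bases in r595, and mt-Atp8 is 204 bases long. With RSEM's effective lengths as offsets, an alternative added after seeing the data, mt-Atp8 had -2.39, mt-Rnr1 4.11 and mt-Nd6 -1.87. Across the 13 mRNAs with copies added, Spearman's rho of gene length with this log2 fold change was 0.55, and -0.12 as deposited, a description over genes that share libraries and overlap.

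**Figure D4:**
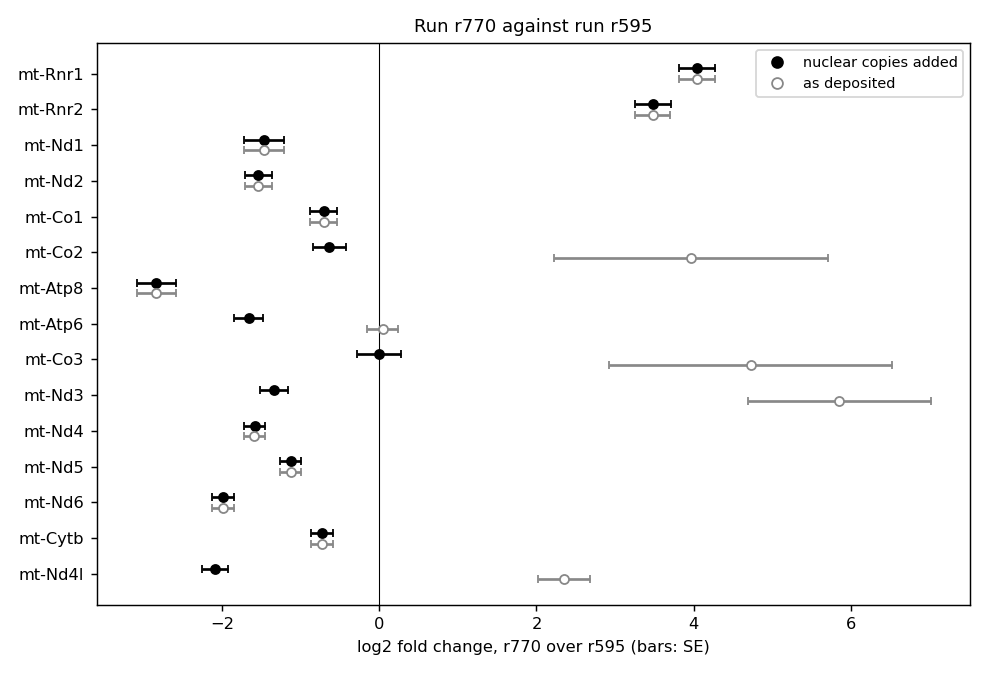
Log2 fold change of r770 over r595 for the 15 measured members, with standard errors as bars, from counts with nuclear copies added (filled) and as deposited (open). Filled points are at 4.04 and 3.48 for the rRNAs and between -2.84 and -0.00 for the mRNAs. Among the mRNAs, the open points of mt-Co2, mt-Co3, mt-Nd3 and mt-Nd4l lie to the right of 0, and that of mt-Atp6 is at 0.04.

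Other RNAs moved with the runs too. Of 79 measured nuclear genes for respiratory complexes I to V, 44 were called higher (9.07% of all genes) and 5 lower (7.11% of all genes) in r770, with a median log2 fold change of 0.53, a sign opposite to that of the mitochondrial mRNAs. Of 82 mitochondrial ribosome proteins, 22 were called higher and 3 lower (median 0.28), beside the same shares of all genes. Slirp, which protects mitochondrial mRNAs together with Lrpprc, was higher in r770 at 1.39 ± 0.16 (edgeR adjusted p = 0.000186), and Tfam, which packs and transcribes mitochondrial DNA, at 0.48 ± 0.11 (adjusted p = 0.0144). Lrpprc had 0.21 ± 0.11 and the mitochondrial RNA polymerase gene Polrmt -0.30 ± 0.20, and neither was called.

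RNAs that lack a poly(A) tail are given beside the rRNAs, which carry short tails at most. Of 59 measured replication-dependent histone genes, 19 were called higher and 4 lower in r770 (median 0.84), beside the same 9.07% and 7.11% of all genes. A second list was drawn up for small structured RNAs but also names ribosomal RNA models such as Rn45s and Rn18s-rs5. Of its 20 measured members 11 were called higher and 1 lower (median 1.28, range -1.78 to 8.51), beside the same shares. The 4 most abundant small structured RNAs had log2 fold changes of -0.02 ± 0.16 for Rn7s1 and 0.23 ± 0.16 for Rn7s2 (7SL RNAs of the signal recognition particle), -0.02 ± 0.19 for Rn7sk (a regulator of transcription elongation) and 0.01 ± 0.20 for Rpph1 (RNA of ribonuclease P), and edgeR called none of them. The part of these RNAs and of fragment length in the difference between runs was not tested.

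Run r711, with WRE-edited libraries only, was set against r770 in the same model, and the comparison shares the r770 libraries with the one above. As deposited 3 of 15 members were called higher, where 0.0695% of all genes were, and 4 with copies added (0.0904% of all genes). With copies added all 15 had positive values. mt-Atp8 was at 360 and 470 CPM in r711, above all 6 libraries of r770 (log2 fold change 1.98 ± 0.32, edgeR adjusted p = 0.0424). mt-Nd4 (0.99 ± 0.17), mt-Nd6 (1.11 ± 0.17) and mt-Nd4l with its copy (1.31 ± 0.21) were the others called. The number as deposited fell from 3 to between 0 and 2 when any single library was left out, and was 1 of 12 tested with WRE-edited libraries only. The rRNAs had 0.50 ± 0.23 (mt-Rnr1) and 0.39 ± 0.23 (mt-Rnr2) and were not called. Nuclear respiratory complex genes had a median of -0.27 with 0 of 79 called in edgeR, and 0 higher (6.37% of all genes) and 19 lower (6.82% of all genes) at an unadjusted p under 0.05. The mean fragment in r711 was 143 and 153 bases. The 7SL RNAs took 6.82% and 5.00% of counts there, against 8.19% to 12.4% in r770. The part of these in the difference was not tested.

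The comparison of WRE-edited with Rosa26-edited libraries asked whether editing that site went with a change of mitochondrial RNA. All 15 members had lower fitted values in the WRE-edited libraries with a term for run, 11 of 15 did without it, and none passed the test. As deposited 0 of 15 were called in edgeR, where 0.00695% of all genes were (1 gene, Rian), with a median of -0.36 against 0.01 over all genes. Negative values made up 48.3% of all genes tested. At an unadjusted p under 0.05 there were 4 lower members as deposited (5.14% of all genes) and 6 with copies added (5.16% of all genes), and 0 higher. DESeq2 called 1 member lower as deposited, where it called 0.459% of all genes lower, and 0 with copies added.

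For mt-Atp8 the r770 values above, all 3 WRE-edited ones under all 3 Rosa26-edited ones, and WRE-edited 6 under Rosa26-edited 4 and 5 gave a log2 fold change of -0.82 ± 0.25, 1.77-fold lower (edgeR adjusted p = 0.402, unadjusted 0.00640). Within runs the log2 differences were -0.96 in r770 and -0.30 in r595. In the same r770 libraries mt-Nd4 was at 879, 891 and 747 CPM against 1201, 973 and 1027 CPM, and mt-Nd6 at 93.7, 86.3 and 77.9 CPM against 114, 96.8 and 101 CPM. These 3 mRNAs are the members with copies added whose groups did not overlap in r770. As deposited there were 5 of 15, where every WRE-edited value lay under every Rosa26-edited value in 4.34% of all genes. In r595 WRE-edited 6 lay under Rosa26-edited 4 and 5 for 10 of 15 members as deposited, against 34.4% of all genes, and for 11 with copies added. The fitted values were -0.31 ± 0.13 for mt-Nd4 and -0.26 ± 0.14 for mt-Nd6.

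The value of mt-Atp6 depended on its copy. As deposited it was at 761, 811 and 638 CPM in WRE-edited 1 to 3 against 1147, 1257 and 1466 in Rosa26-edited 1 to 3. The groups did not overlap, the log2 fold change was -0.73 ± 0.19, and the adjusted p was 0.363 in edgeR and 0.0378 in DESeq2. As sums with Gm10925 the libraries had 1685, 1399 and 1709 CPM against 3137, 2587 and 1650 CPM. The groups then overlapped, since Rosa26-edited 3, highest as deposited, was lowest of its group. The log2 fold change was then -0.52 ± 0.18, with adjusted p = 0.439 in edgeR and 0.192 in DESeq2.

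The complex I, III and IV mRNAs, by role and with copies added, had values from -0.42 to -0.17. Of these 11 mRNAs, the groups overlapped in r770 for all but mt-Nd4 and mt-Nd6. Among complex I genes mt-Nd1 had -0.36 ± 0.25, mt-Nd2 -0.17 ± 0.17, mt-Nd3 -0.42 ± 0.18, mt-Nd4l -0.42 ± 0.16 and mt-Nd5 -0.23 ± 0.14. mt-Cytb had -0.32 ± 0.14. In r770 mt-Co1 was at 13957, 10775 and 13267 CPM in WRE-edited 1 to 3 and 20638, 17872 and 11764 CPM in Rosa26-edited 1 to 3, while in r595 it was at 22035 CPM against 27747 and 25032 CPM. Rosa26-edited 3 fell within the WRE-edited range. The fitted value was -0.36 ± 0.17 for mt-Co1, -0.32 ± 0.20 for mt-Co2 and -0.42 ± 0.27 for mt-Co3. As deposited, mt-Co2 (-2.35), mt-Co3 (-2.11) and mt-Nd3 (-1.34) had larger values with standard errors of 1.46, 1.49 and 0.90, in genes listed at or near 0 in several libraries. The rRNAs had -0.23 ± 0.18 (mt-Rnr1) and -0.26 ± 0.18 (mt-Rnr2).

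**Figure D5:**
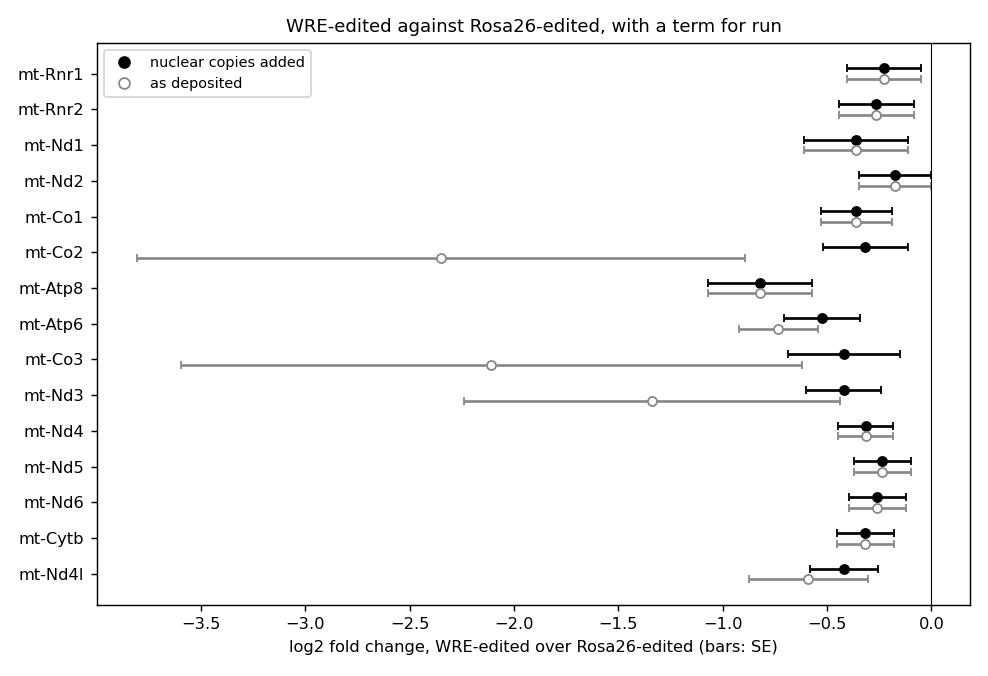
Log2 fold change of WRE-edited over Rosa26-edited libraries for the 15 measured members, with standard errors as bars, from counts with nuclear copies added (filled) and as deposited (open). All points lie left of 0, between -0.82 and -0.17 with copies added, and none was called in edgeR.

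Summed over members the difference was of the same size and did not pass either. The mean share of mitochondrial counts in r770 was 23.2% ± 2.27 (SD, n = 3) in WRE-edited and 27.7% ± 5.52 (SD, n = 3) in Rosa26-edited libraries, and in r595 6.93% against 9.40% and 7.94%. The log2 difference within runs was -0.26 for all members (exact permutation p = 0.133 within runs, two-sided, 60 assignments, smallest possible 0.0167). It was -0.24 for the rRNAs (exact permutation p = 0.167), -0.35 for the mRNAs (exact permutation p = 0.0667) and -0.40 for the mRNAs as a share of the counts without mitochondrial rRNA (exact permutation p = 0.0667). Adjusted over these 4 shares the exact permutation p was 0.133 to 0.167. Run r770 alone, with 3 libraries against 3, cannot go below an exact permutation p of 0.1.

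These shares depended on 1 library and on the unit. Without Rosa26-edited 3 the adjusted exact permutation p was 0.0444 for all members (log2 difference -0.38), for the mRNAs (-0.43) and for the mRNAs without rRNA in the total (-0.52). Fewer assignments are possible without that library, and the unadjusted exact permutation p behind these values was the smallest possible. As sums of TPM the differences were -0.44, -0.39 for the rRNAs, -0.59 and -0.62, with adjusted exact permutation p of 0.0444, 0.05, 0.0333 and 0.0333. Without regard to run the difference of all members was 0.28 and that of the rRNAs 0.64, the opposite sign. Both libraries of r711 are WRE-edited and 2 of 3 libraries of r595 are Rosa26-edited.

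Other measures moved with the editing groups inside the runs. The 7SL RNAs took 11.5%, 10.6% and 12.4% of counts in WRE-edited 1 to 3 against 8.19%, 9.29% and 10.01% in Rosa26-edited 1 to 3, and 14.2% in WRE-edited 6 against 9.85% and 10.7%. The groups did not overlap in either run. With 7SL left out of the totals, an alternative added after seeing the data, the difference was -0.21 for all members and -0.30 for the mRNAs. The mean fragment was 156, 158 and 164 bases in WRE-edited 1 to 3, and 173, 172 and 155 bases in Rosa26-edited 1 to 3. Rosa26-edited 1 and 2, with the longest fragments, also had the highest mitochondrial shares of r770, and the part of fragment length in the difference was not tested.

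Nuclear genes around the mitochondrial genome were not called in this comparison. Of 79 nuclear respiratory complex genes 0 were called in edgeR, 4 were higher and 0 lower at an unadjusted p under 0.05 (4.95% of all genes higher), and 70 had positive values, against 51.7% of all genes. Their median was 0.15, opposite in sign to the mitochondrial mRNAs, with the ATP synthase gene Atp5d at 0.36 ± 0.15 and the complex IV gene Cox4i1 at 0.34 ± 0.15. The medians were 0.13 for 37 genes of complex I, 0.14 for 4 of complex II (the complex with no mitochondrial subunit), 0.19 for 9 of complex III, 0.20 for 12 of complex IV and 0.13 for 18 of complex V. Of 82 mitochondrial ribosome proteins 73 were positive (median 0.14) and 0 were called in edgeR, with 3 higher at an unadjusted p under 0.05. The difference between the mitochondrial and nuclear groups was not tested.

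Factors that make or keep mitochondrial RNA showed no common direction. Of 19 genes for transcription and replication of mitochondrial DNA, 9 were positive (median -0.02). Polrmt was at 0.40 ± 0.19, Tfam at -0.22 ± 0.11, the mitochondrial DNA polymerase gene Polg at 0.35 ± 0.13, and the terminator family genes Mterf2 and Mterf4 at -0.86 ± 0.23 and 0.40 ± 0.15. Of 36 genes for RNA processing, modification and decay, 23 were positive (median 0.09). Slirp was at -0.34 ± 0.15, Lrpprc at -0.05 ± 0.10, the RNA-degrading Pnpt1 at -0.35 ± 0.13, the rRNA methyltransferase gene Mrm1 at 0.87 ± 0.33 and the pseudouridine synthase gene Pus1 at 0.35 ± 0.16. Levels were low for Mrm1 (0.446 to 1.58 CPM over all libraries) and Mterf2 (0.745 to 5.45 CPM). In these lists edgeR called 0, with 2 higher and 1 lower, and 2 higher and 2 lower, at an unadjusted p under 0.05, where 4.95% of all genes were higher and 5.14% lower.

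Among 12 regulators of mitochondrial biogenesis 9 were positive (median 0.08) and 0 were called in edgeR, with 1 higher at an unadjusted p under 0.05 (4.95% of all genes), Yy1 at 0.39 ± 0.18. Of 14 genes of the mitochondrial stress response 12 were positive (median 0.24), 0 were called in edgeR and 5 were higher at an unadjusted p under 0.05, beside the same 4.95% of all genes. They included Asns, the asparagine synthetase gene, at 1.55 ± 0.41, the transcription factor gene Atf5 at 0.63 ± 0.24, the matrix protease gene Lonp1 at 0.34 ± 0.12 and the chaperone gene Dnaja3 at 0.27 ± 0.12. In r770 Asns was at 1.61 to 8.98 CPM in WRE-edited and 2.105 to 2.261 CPM in Rosa26-edited libraries, so its groups overlapped there.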

How the data were processed

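Gene tables of 11 RNA-seq libraries held expected counts, TPM and other values (length and effective length), per the file headers. Per the submitters' processing notes the authors used STAR 2.7.6a, RSEM 1.3.1 and the GRCm38 build, while the labels state no strand setting. The deposited expected counts were rounded for testing. Deposited TPM values served for order and for 1 alternative. A deposited normalized matrix, design tables and miRNA counts were not used. Of 55536 identifiers, 55450 matched gene names.

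Counts were tested in R 4.3.3 with edgeR 4.0.16 (filterByExpr by group with a minimum count of 10 and total of 15, TMM, robust quasi-likelihood, terms for run and group, 7 residual degrees of freedom, Benjamini-Hochberg threshold 0.05). The group effect rests on r770 and r595. DESeq2 1.42.0 was an alternative. Shares were permuted exactly within runs. The fits were tested on simulated data. The members and lists were chosen with earlier results of these data known. All 15 measured members are named. Of each nuclear list, up to 4 genes by smallest group p and Polrmt, Tfam, Lrpprc and Slirp could be named, and of the RNAs without a poly(A) tail up to 4 by CPM. The labels tie no replicate number to an animal, litter or day. No mitochondrial sequence is printed.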

Additional observations from a re-analysis of the deposited data

How the results depend on the processing

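WRE-edited against Rosa26-edited, 0 members were called lower in edgeR, and 0 when any single library was left out. DESeq2 called 1 member lower, where it called 66 of 14393 genes lower. Without a filter on low counts 6 members were called lower, where 318 of 27704 genes were. The cause of the change without a filter was not tested. Without the run term the log2 fold changes turned positive for mt-Rnr1 (0.44), mt-Rnr2 (0.28), mt-Nd3 (0.0467) and mt-Nd4l (0.12). With no run term and the counts of WRE-edited 4 and 6 summed, these had 0.52, 0.34, 0.17 and 0.26, and mt-Co3 had 0.0355. A replicate block in place of the run term gave 1.44, 1.19, 1.25, 0.56 and 1.02. That block sets WRE-edited 4 and 5 of r711 against Rosa26-edited 4 and 5 of r595, so these values also carry the difference between runs. With the replicate block, with or without the run term, 0 members were called. No WRE-edited library correlated best with the Rosa26-edited library of its own number (correlations of -0.20 to 0.27 over 5 pairs). Only group means were removed first, so pairs 4 and 5, which differ by run, could not show pairing. Leaving out single libraries, mt-Nd2 ranged from -0.27 to 0.0015, positive without Rosa26-edited 1. Of 345 gene values under the alternatives, 323 kept direction and stayed uncalled, 7 gained a call and 15 changed direction. The main fit held no call to lose, and the alternatives reuse the same libraries.

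Comparing r770 with r595, 4 members were called higher (4 to 5 leaving out single libraries) and 8 lower (7 to 8). With copies added 2 were higher, also with DESeq2. With Rosa26-edited libraries only, 4 of 13 tested members were higher and 5 lower, where 417 and 151 of 12623 genes were. With copies added, by edgeR and DESeq2, mt-Co2 had -0.64 and -0.64, mt-Atp6 -1.66 and -1.66, mt-Co3 -0.0040 and -0.0065, mt-Nd3 -1.34 and -1.35, and mt-Nd4l -2.09 and -2.09. As deposited, mt-Atp6 had -0.047 without the group term, and -0.19 to 0.2973 leaving out single libraries, negative without Rosa26-edited 3 or 5. Of 283 gene values 261 kept direction and call.

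Comparing r711 with r770, 3 members were called higher, and 0 to 2 leaving out single libraries. DESeq2 called 5 members higher, where it called 103 of 14393 genes higher. With WRE-edited libraries only, 1 member was called higher, where 1 of 12430 genes was. mt-Atp6 turned to 1.16 with copies added. Leaving out single libraries it ranged from -0.153 to 0.0147, and mt-Nd4l from -0.26 to 0.952. Of 222 gene values 186 kept direction and call.

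The share of all members differed by -0.26 on the log2 scale (-0.38 to -0.20 leaving out single libraries), of the rRNAs by -0.24 (-0.36 to -0.18), of the mRNAs by -0.35 (-0.43 to -0.27) and of the mRNAs without rRNA in the total by -0.40 (-0.52 to -0.30). As sums of TPM all but the rRNAs passed (-0.44, -0.59 and -0.62). Without the run term the share of all members had 0.28 and that of the rRNAs 0.64.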

Other observations

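Lars2, the nuclear gene of the mitochondrial leucyl-tRNA synthetase, was chosen after its values were seen. It ranged from 1531 to 170368 expected counts between libraries. Its CPM was 251 to 1784 in the 3 WRE-edited and 909 to 5068 in the 3 Rosa26-edited libraries of r770. It was 72.8 and 362 CPM in r711, 5029 CPM in WRE-edited 6 and 2063 and 3545 CPM in Rosa26-edited 4 and 5. The groups overlapped in r770.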
